A study of Mus musculus with 36 samples.

Results

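The genes described here are 35 genes of fatty acid uptake and oxidation, out of 18762 gene IDs in the tables, 18623 of which carry a symbol. They were chosen by name for their known function, with earlier results of these data known. Counts set against the share of all genes are therefore descriptions and not independent tests. All 35 were found by symbol and all 35 passed the filter on low values, with mean levels over all libraries between 2.13 FPKM for Acsl3 and 6646 FPKM for Fabp3 (FPKM, fragments per kilobase of transcript scaled to library depth). They fall into 9 roles: uptake, activation, carnitine shuttle, acyl-CoA dehydrogenases, the enzymes of the later steps of the cycle, the enzymes for unsaturated fatty acids, electron transfer, the peroxisomal enzymes and the control of malonyl-CoA.

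Hearts of C57BL/6 mice aged 8 weeks, kept on normal chow in 12 h of light and 12 h of dark, were profiled by RNA-seq through the day, with times given as ZT (zeitgeber time, counted in hours from lights on). The KO-labelled group had the genotype Reverb fl/fl/MHC+ and is described here at ZT2, 6, 10, 14 and 18. The WT-labelled group had the genotype Reverb fl/fl and is described at these times and at ZT22. Each group has 3 libraries at each of its times, 33 in all. KO samples at ZT22 are also recorded, but their tables carry the header names of KO at ZT10 and were not used as ZT22 values. Both groups carry the floxed Reverb allele, and no group carries MHC+ alone, so an effect of that transgene cannot be told apart from that of the deletion. In heart models MHC is commonly a promoter of a myosin heavy chain gene, active in heart muscle cells, but the labels do not say which Rev-erb gene or exons are floxed or what MHC+ drives.

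Long-chain fatty acids are the main fuel of the adult heart. They are freed from circulating triglycerides at the vessel wall, carried into the muscle cell, joined to coenzyme A, and passed into mitochondria as carnitine esters. There they are shortened by a repeated cycle of dehydrogenation, hydration, further dehydrogenation and thiolysis, whose electrons go to the respiratory chain. Malonyl-CoA blocks the carnitine step, and Rev-erb proteins are repressors of the circadian clock.

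Depth, estimated from the tables, was 15048000 to 17376000 reads in KO libraries and 13650000 to 15710000 in WT libraries, so sampling error is small for most of these transcripts. Nr1d1, which encodes Rev-erb alpha, had 192, 219 and 317 FPKM (lowest, median, highest of 15) in KO libraries, against 10.7, 38.3 and 87.7 FPKM in the 15 WT libraries of the same times. Nr1d2, which encodes Rev-erb beta, had 22.4, 29.5 and 35.4 FPKM in KO libraries, against 12.3, 29.4 and 42.4 FPKM in WT libraries. Arntl, a clock gene that Rev-erb proteins repress, had 23.7, 27.9 and 30.5 FPKM in KO libraries, against 0.730, 4.03 and 13.8 FPKM in WT libraries, with no overlap. A value per gene does not test a deletion of exons, so the libraries are named by their labels. Cardiomyocyte markers were present in every library, with summed levels of 47830 to 53730 FPKM in KO and 47010 to 53830 FPKM in WT hearts at the shared times, and adipocyte markers summed to 0.40 to 2.97 FPKM in KO and 0.12 to 3.01 FPKM in WT hearts. WT ZT2 replicate 1 stood apart, with the largest spread of deviations from its group (SD 0.169 on the log2 scale) and a median deviation of the 35 genes of -0.07. The labels do not state whether the 3 libraries of a group are from different mice. The p-values below therefore reflect the scatter among libraries, which may be technical.

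Most transcripts of fatty acid uptake and oxidation were lower in KO-labelled hearts, by modest amounts. Averaged over the 5 shared times, 27 of the 35 genes fell, 2 rose (Acaa2 and Etfa) and 6 were not called, by limma at an adjusted p under 0.05. Across all 11790 genes tested, 23.4% fell and 33.2% rose. The median KO minus WT difference was -0.20 for the 35 genes and 0.02 for all genes tested, on the log2(FPKM + 1) scale used for every difference below. Single genes ranged from -0.64 to 0.08, and 0 of the 35 reached a 2-fold change in this mean over times. The added 1 shrinks the differences of low transcripts, and in mean FPKM at a single time 1 value passed 2-fold, that of Ehhadh at ZT6, at 4.85 FPKM in KO hearts and 10.62 FPKM in WT hearts. In 26 of the 35 genes the difference was negative at all 5 times, which held for 19% of all genes tested. In heart tissue, fewer cells of a type and less RNA per cell cannot be told apart.

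The summed FPKM of the 35 genes averaged 17240 ± 426 at ZT2, 16720 ± 310 at ZT6, 18270 ± 785 at ZT10, 16550 ± 480 at ZT14 and 17790 ± 95.5 at ZT18 in KO hearts (SD, n = 3 each). The WT sums averaged 19070 ± 660, 19600 ± 218, 20450 ± 428, 20950 ± 709 and 19290 ± 497 at the same times (SD, n = 3 each), and 19640 ± 325 at ZT22. At each of the 5 shared times the highest KO library lay below the lowest WT library. Fabp3 alone supplies about 6157 of the KO mean and 6996 of the WT mean, so this sum is weighted to a few abundant transcripts.

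Of the 35 genes, 10 had all 15 KO libraries below all 15 WT libraries of the shared times, a separation seen in 2.8% of all genes tested. They were Acsl1, Slc25a20, Acadvl, Acadm, Hadha, Eci1, Eci2, Decr1, Etfb and Acacb. None of the 35 had all KO libraries above all WT libraries, against 3.95% of all genes. Within times, 16 of the 35 had no overlap between 3 KO and 3 WT libraries at each of the 5 times with KO lower, against 5.55% of all genes.

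**Figure D1:**
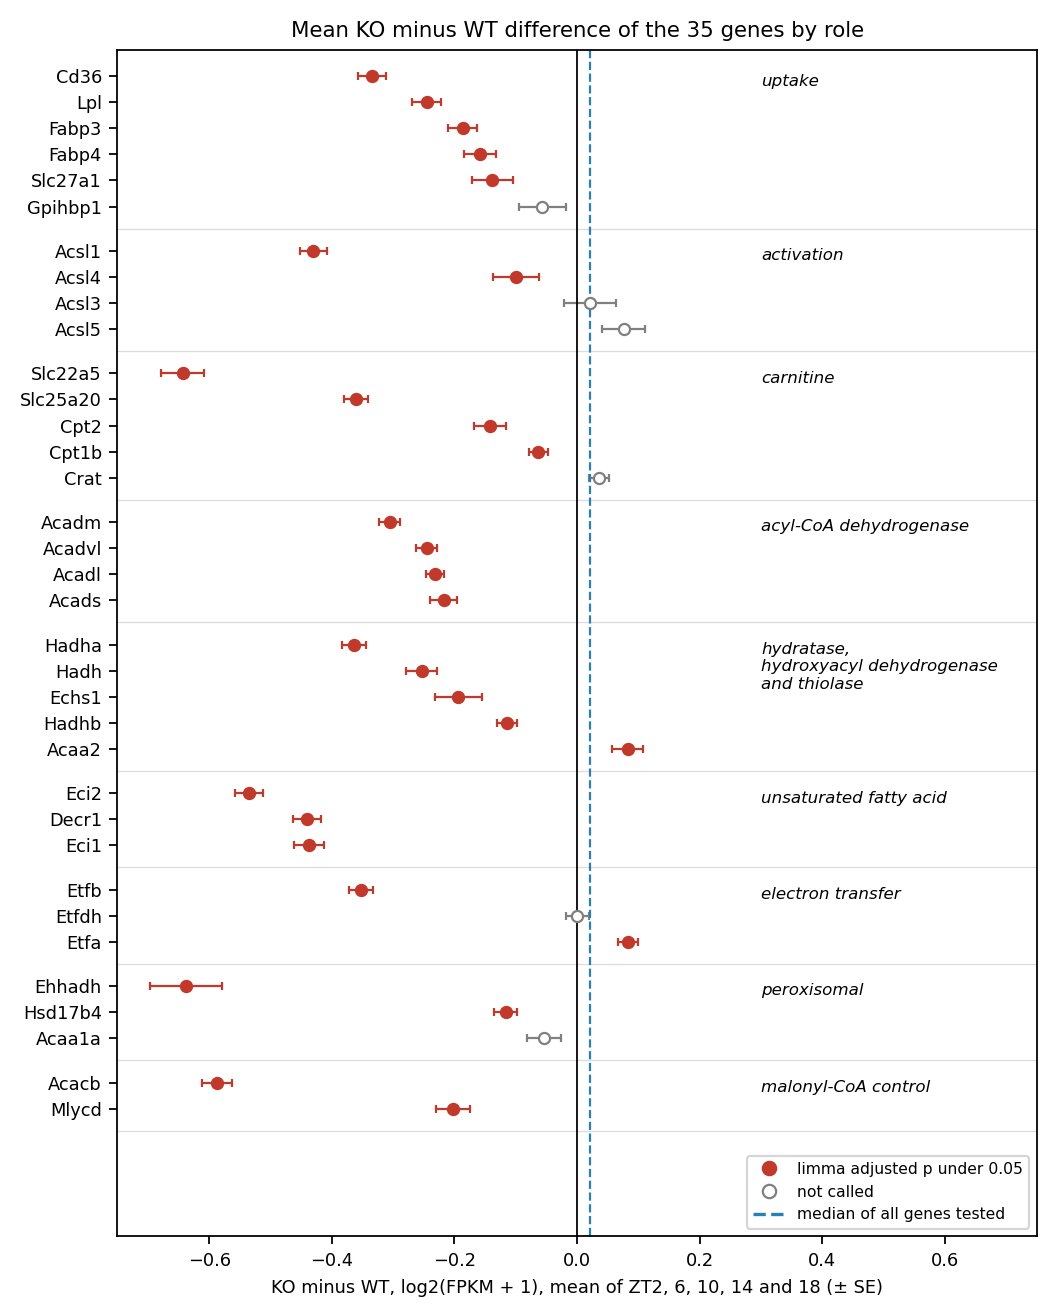
KO minus WT difference of log2(FPKM + 1), averaged over ZT2, 6, 10, 14 and 18, for the 35 genes grouped by role (points, estimates; bars, SE; filled, limma adjusted p under 0.05; dashed line, median of all genes tested). The 3 genes for unsaturated fatty acids lie together between -0.54 and -0.44, while the 3 electron transfer genes are spread from -0.35 to 0.08.

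The plot of mean differences shows that the genes of one role did not always share a value, and the roles are taken in turn below, following a fatty acid from the vessel to the mitochondrion.

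Uptake genes were lower in KO hearts, with 5 of 6 called and a median difference of -0.17. Lpl, the lipase that frees fatty acids from lipoproteins, had 1534, 1658 and 1821 FPKM (lowest, median, highest of 15) in KO hearts, against 1815, 1981 and 2206 FPKM in WT hearts. In 14 of 15 KO libraries Lpl was below every WT library of the shared times, and it fell by 0.25 ± 0.02 (SE; limma adjusted p = 4.0e-10). Gpihbp1, which anchors that lipase to the capillary wall, had 77.9, 100.2 and 115.7 FPKM in KO hearts, against 74.4, 107.4 and 126.4 FPKM in WT hearts. The Gpihbp1 libraries overlapped at ZT2, ZT14 and ZT18, while at ZT6 and ZT10 all 3 KO libraries lay below the 3 WT libraries. Its mean difference of -0.06 ± 0.04 was not called (limma adjusted p = 0.21).

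Cd36, the main fatty acid translocase of the muscle cell membrane (mm10 chromosome 5, 17781690 to 17888959), had 623 to 673 FPKM at ZT2, 605 to 625 at ZT6, 634 to 670 at ZT10, 533 to 632 at ZT14 and 592 to 603 at ZT18 in KO hearts. In WT hearts Cd36 had 723 to 777 FPKM at ZT2, 813 to 851 at ZT6, 775 to 875 at ZT10, 788 to 863 at ZT14, 662 to 689 at ZT18 and 689 to 734 at ZT22. The KO and WT libraries did not overlap at any of the 5 times. The gap was widest at ZT14, at -0.50, and narrowest at ZT18, at -0.17. The difference between times was itself called (limma interaction adjusted p = 0.0156).

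Fabp3, the heart fatty acid binding protein and the most abundant of the 35 transcripts, had 5887 to 6586 FPKM at ZT2, 5796 to 6013 at ZT6, 6098 to 6685 at ZT10, 5172 to 5970 at ZT14 and 6721 to 6870 at ZT18 in KO hearts. In WT hearts it had 6352 to 6821 FPKM at ZT2, 6432 to 6824 at ZT6, 6909 to 7452 at ZT10, 6994 to 7987 at ZT14, 6712 to 7418 at ZT18 and 7172 to 7489 at ZT22. Libraries overlapped at ZT2 and ZT18, and KO libraries were lower without overlap at ZT6, ZT10 and ZT14, the 3 times at which Fabp3 was called. The widest gap was again at ZT14, at -0.42, and the difference between times was called (limma interaction adjusted p = 0.0203). Under quantile normalization the Fabp3 mean difference shrank to -0.08 and was not called (limma adjusted p = 0.081), and its ZT6 difference turned to 0.14.

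Fabp4, a fatty acid binding protein found in endothelial cells and adipocytes, had 614 to 686 FPKM at ZT2, 689 to 797 at ZT6, 831 to 880 at ZT10, 682 to 725 at ZT14 and 587 to 614 at ZT18 in KO hearts. In WT hearts it had 592 to 661 FPKM at ZT2, 851 to 958 at ZT6, 914 to 932 at ZT10, 873 to 995 at ZT14, 596 to 658 at ZT18 and 649 to 718 at ZT22. KO libraries were lower without overlap at ZT6, ZT10 and ZT14, while libraries overlapped at ZT2 and ZT18. Fabp4 fell at ZT6 (-0.29, limma adjusted p = 0.00026) and at ZT14 (-0.40, limma adjusted p = 3.2e-06), and had the smallest interaction p of the 35 genes (limma adjusted p = 0.0025). Of 9 endothelial markers, 1 rose and 0 fell at ZT6 and likewise at ZT14, 0 rose and 2 fell at ZT10, 0 rose and 3 fell at ZT18, and at ZT2 limma called 0 in either direction, with 1 at an unadjusted p under 0.05. Their sum was 270 to 272 FPKM in KO against 243 to 288 FPKM in WT hearts at ZT2, 334 to 340 FPKM in KO against 312 to 317 FPKM in WT hearts at ZT6, and 257 to 292 FPKM in KO against 289 to 296 FPKM in WT hearts at ZT10. It was 277 to 293 FPKM in KO against 263 to 273 FPKM in WT hearts at ZT14, and 273 to 290.0 FPKM in KO against 308 to 326 FPKM in WT hearts at ZT18. The sum was thus higher in KO hearts at ZT6 and ZT14 and lower at ZT18 without overlap. In the mean over times 3 of these markers rose (33.2% of all genes tested rose), 2 fell (23.4% fell) and 4 were not called. Those furthest from 0 among the called were Vwf (von Willebrand factor), at 0.15 ± 0.05 (limma adjusted p = 0.0134), Pecam1 (the adhesion molecule CD31), at -0.12 ± 0.02 (limma adjusted p = 4.1e-06), and Emcn (endomucin), at 0.10 ± 0.04 (limma adjusted p = 0.0453). Their part in the course of Fabp4 was not tested.

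**Figure D2:**
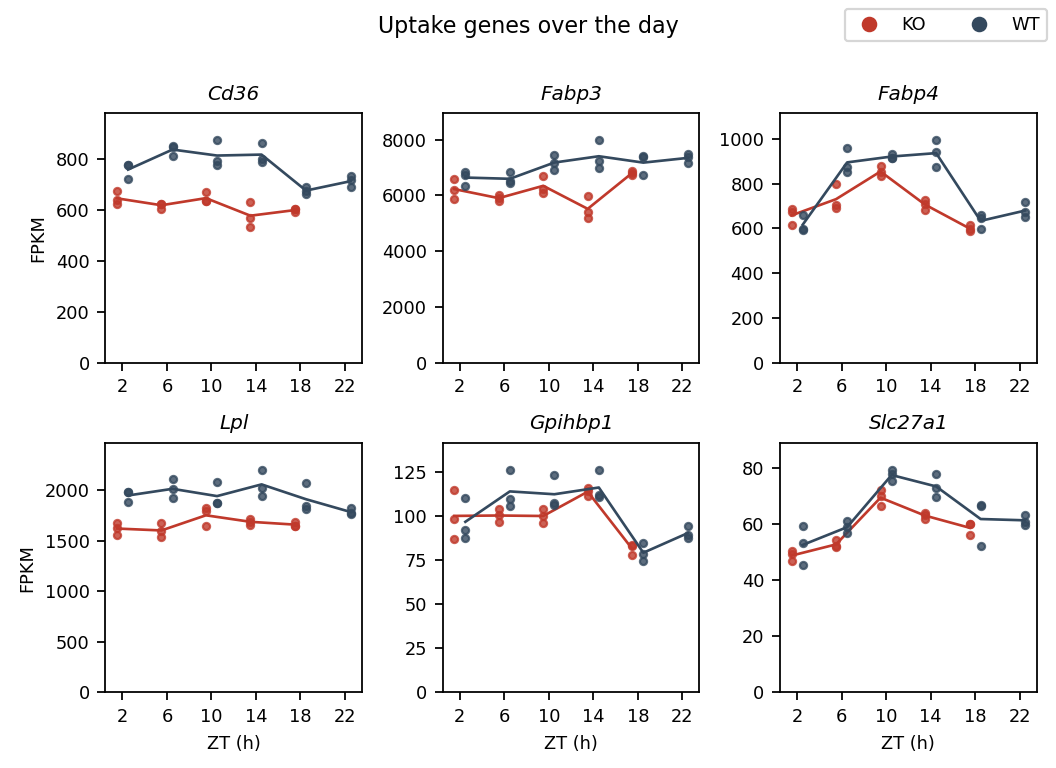
FPKM of the 6 uptake genes in each library against ZT in hours (points, single libraries, offset by genotype; lines, means of 3 libraries; KO red, WT dark). Cd36, Fabp3 and Fabp4 differ most at ZT14, where the WT level is near its highest, while Gpihbp1 overlaps at ZT2, ZT14 and ZT18.

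The time courses of the uptake genes show how far the gap depended on the hour. Slc27a1, a fatty acid transport protein with acyl-CoA synthetase activity, had 46.9, 60.0 and 72.2 FPKM in KO hearts, against 45.3, 66.7 and 79.5 FPKM in WT hearts. Within times, KO libraries were lower without overlap at ZT6, ZT10 and ZT14, and the groups overlapped at ZT2 and ZT18. The mean difference of Slc27a1 was -0.14 ± 0.03 (limma adjusted p = 0.00074).

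Of the 4 long-chain acyl-CoA synthetases, which join fatty acids to coenzyme A, 2 fell and 2 were not called. Acsl1, the main isoform of heart muscle (mm10 chromosome 8, 46471037 to 46536051), had 277, 299 and 364 FPKM in KO hearts, against 385, 406 and 476 FPKM in WT hearts, with no overlap. It fell by 0.43 ± 0.02 (limma adjusted p = 4.0e-16), with differences from -0.30 at ZT10 to -0.56 at ZT14 that themselves differed (limma interaction adjusted p = 0.0376). The other isoforms averaged 2.11 to 7.73 FPKM in KO hearts and 2.08 to 7.24 FPKM in WT hearts.

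Acsl4, an isoform that prefers arachidonic acid, had 2.54, 3.56 and 4.01 FPKM in KO hearts, against 2.91, 3.71 and 4.54 FPKM in WT hearts, and fell by 0.10 ± 0.04 (limma adjusted p = 0.0249). Acsl3, an isoform of lipid droplets and endoplasmic reticulum, had 1.69 to 2.59 FPKM in KO hearts and 1.66 to 3.31 FPKM in WT hearts, with a difference of 0.02 ± 0.04. Acsl5 had a different course from Acsl1. At ZT2 it had 8.07, 8.58 and 8.76 FPKM in KO hearts, against 7.15, 6.67 and 7.09 FPKM in WT hearts, without overlap, and rose by 0.25 (limma adjusted p = 0.0153). By ZT18 it had 6.41, 6.79 and 6.66 FPKM in KO hearts, against 6.91, 6.72 and 7.36 FPKM in WT hearts, and its mean difference over the day, 0.08 ± 0.03, was not called (limma adjusted p = 0.065). The annotated span of Acsl5 overlaps Zdhhc6 on the other strand, and counting by strand is not given in the sources used here.

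Of the 5 carnitine genes 4 fell, and the transporters fell further than the transferases. Slc22a5, the plasma membrane carnitine carrier OCTN2 (mm10 chromosome 11, 53864542 to 53891796), had 7.37, 7.20 and 7.02 FPKM at ZT2, 7.49 to 8.60 at ZT6, 7.84 to 8.39 at ZT10, 9.17 to 9.49 at ZT14 and 6.51 to 7.49 at ZT18 in KO hearts. In WT hearts it had 8.64, 9.59 and 11.97 FPKM at ZT2, 12.81 to 13.02 at ZT6, 13.9 to 14.9 at ZT10, 14.1 to 16.0 at ZT14, 11.7 to 14.2 at ZT18 and 11.1 to 12.1 at ZT22. The libraries never overlapped within a time, and the ranges over all times met only because WT replicate 1 at ZT2 was below the highest KO libraries of ZT14. Slc22a5 fell by 0.64 ± 0.04 on the log2(FPKM + 1) scale (limma adjusted p = 3.2e-15), level with Ehhadh as the largest of the 35 genes. As a ratio of mean FPKM, KO over WT, it was 0.609, against 0.569 for Ehhadh, which is the lowest of the 35.

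Slc25a20, the carnitine-acylcarnitine exchanger of the inner mitochondrial membrane, had 114, 123 and 137 FPKM in KO hearts, against 142, 158 and 179 FPKM in WT hearts, with no overlap. It fell by 0.36 ± 0.02 (limma adjusted p = 2.2e-15). Cpt2, the transferase of the inner membrane, had 135, 139 and 165 FPKM in KO hearts, against 140.0, 157 and 173 FPKM in WT hearts, and fell by 0.14 ± 0.03 (limma adjusted p = 3.7e-05). Cpt1b, the muscle transferase that malonyl-CoA inhibits, had 306, 334 and 364 FPKM in KO hearts, against 312, 347 and 378 FPKM in WT hearts. Pooled over times the Cpt1b ranges nearly coincided, and its fall of 0.06 ± 0.02 was the smallest called among the carnitine genes (limma adjusted p = 0.00083). Within times, KO libraries were lower without overlap at ZT6, ZT14 and ZT18 and overlapped at ZT2 and ZT10. Of the single times only ZT6 was called (limma adjusted p = 0.0435). Crat, the carnitine acetyltransferase, had 273, 294 and 310 FPKM in KO hearts, against 270.0, 282 and 299 FPKM in WT hearts. Its difference of 0.04 ± 0.02 was not called. Under quantile normalization the Crat mean turned to -0.060 and was called lower (limma adjusted p = 0.0055).

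All 4 acyl-CoA dehydrogenases, which take the first step of the cycle on chains of different length, fell by similar amounts. Acadvl, for very long chains, had 390, 410 and 466 FPKM in KO hearts, against 472, 487 and 525 FPKM in WT hearts. Acadm, for medium chains, had 559, 594 and 658 FPKM in KO hearts, against 667, 748 and 820 FPKM in WT hearts. Neither gene had any overlap between groups at the shared times, and at ZT22 the lowest WT library of Acadvl, at 461 FPKM, was below the highest KO library. Acadvl fell by 0.25 ± 0.02 (limma adjusted p = 1.3e-12) and Acadm by 0.31 ± 0.02 (limma adjusted p = 6.4e-15). Acads, for short chains, had 93.0, 101 and 109 FPKM in KO hearts, against 106, 117 and 133 FPKM in WT hearts, and fell by 0.22 ± 0.02 (limma adjusted p = 1.7e-09).

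Acadl, for long chains, had 613 to 651 FPKM at ZT2, 606 to 609 at ZT6, 640 to 691 at ZT10, 616 to 649 at ZT14 and 598 to 617 at ZT18 in KO hearts. In WT hearts Acadl had 683 to 729 FPKM at ZT2, 728 to 742 at ZT6, 753 to 793 at ZT10, 786 to 820 at ZT14, 657 to 690 at ZT18 and 677 to 701 at ZT22. It was lower in KO hearts without overlap at each of the 5 times, by 0.35 at ZT14 and 0.15 at ZT18 at the extremes, and the difference between times was called (limma interaction adjusted p = 0.0316).

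The later steps of the cycle showed a split between subunits. Hadha and Hadhb encode the alpha and beta subunits of the mitochondrial trifunctional protein, which hydrates, dehydrogenates and cleaves long chains. Hadha had 439, 480 and 548 FPKM in KO hearts, against 556, 628 and 676 FPKM in WT hearts, with no overlap, and fell by 0.36 ± 0.02 (limma adjusted p = 3.8e-15). Hadhb had 1094, 1155 and 1247 FPKM in KO hearts, against 1128, 1279 and 1342 FPKM in WT hearts, overlapped, and fell by 0.11 ± 0.02 (limma adjusted p = 9.8e-07). The ratio of Hadha to Hadhb FPKM was 0.389 to 0.441 in KO libraries, against 0.458 to 0.539 in WT libraries of the shared times, with no overlap. This ratio and the others below were chosen after the values were seen and carry no test.

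The 2 genes are neighbours on chromosome 5 that run in opposite directions, and the annotated ends of their first exons are 85 bases apart. The stretch between them is shown because both subunits start from its 2 sides and yet differed by different amounts (RefSeq sequence, GRCm38.p6, chr5:30155163-30155247, plus strand, read towards Hadhb). None of its bases is in capitals because none of the motifs searched below lies in it.
Hadha-Hadhb stretch: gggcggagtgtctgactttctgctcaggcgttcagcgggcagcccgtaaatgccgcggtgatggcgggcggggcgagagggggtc

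Hadh, the dehydrogenase for medium and short hydroxyacyl chains, had 347, 376 and 435 FPKM in KO hearts, against 398, 463 and 503 FPKM in WT hearts, and fell by 0.25 ± 0.03 (limma adjusted p = 1.5e-09). Echs1, the short-chain hydratase, had 202, 227 and 287 FPKM in KO hearts, against 230, 254 and 312 FPKM in WT hearts, and fell by 0.19 ± 0.04 (limma adjusted p = 9.5e-05). At ZT10 its difference was 0.00. Acaa2, the mitochondrial thiolase of the last step, went the other way, with 627, 666 and 798 FPKM in KO hearts, against 566, 651 and 692 FPKM in WT hearts. Acaa2 rose by 0.08 ± 0.03 (limma adjusted p = 0.0077), though median-ratio scaling, quantile normalization and edgeR did not call it, at differences of 0.06, 0.03 and 0.05.

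The 3 auxiliary enzymes for unsaturated fatty acids, which move or remove double bonds that the cycle cannot handle, moved together. Eci2, an enoyl-CoA isomerase of mitochondria and peroxisomes (mm10 chromosome 13, 34977748 to 35027115), had 93.9, 101 and 111 FPKM in KO hearts, against 138, 146 and 161 FPKM in WT hearts. Eci1, the mitochondrial isomerase (mm10 chromosome 17, 24426683 to 24439316), had 229, 241 and 281 FPKM in KO hearts, against 305, 332 and 355 FPKM in WT hearts. Decr1, the mitochondrial 2,4-dienoyl-CoA reductase (mm10 chromosome 4, 15917240 to 15945377), had 136, 150.0 and 165 FPKM in KO hearts, against 182, 205 and 231 FPKM in WT hearts. None of the 3 had an overlapping library, and each was called lower at all 5 times. The mean falls were 0.54 ± 0.02 for Eci2 (limma adjusted p = 1.9e-17), 0.44 ± 0.02 for Eci1 (limma adjusted p = 3.1e-15) and 0.44 ± 0.02 for Decr1 (limma adjusted p = 8.3e-16).

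In the mean over times the 3 electron transfer genes went 3 ways. Etfa and Etfb encode the 2 subunits of the electron transfer flavoprotein, which collects electrons from the dehydrogenases, and Etfdh encodes the dehydrogenase that passes them to ubiquinone. Etfb had 444, 478 and 541 FPKM in KO hearts, against 582, 615 and 648 FPKM in WT hearts, with no overlap, and fell by 0.35 ± 0.02 (limma adjusted p = 3.9e-15). Etfa had 526, 541 and 595 FPKM in KO hearts, against 473, 519 and 561 FPKM in WT hearts, overlapped, and rose by 0.08 ± 0.02 (limma adjusted p = 9.5e-05). Etfdh had 377, 394 and 452 FPKM in KO hearts, against 382, 393 and 432 FPKM in WT hearts, a mean difference of 0.00 ± 0.02 (limma adjusted p = 0.98). At ZT14 Etfdh was called lower, by 0.11 (limma adjusted p = 0.0429). KO libraries lay lower without overlap at ZT6 and ZT14 and higher without overlap at ZT18, at 0.07, which was not called. Variation of the Etfdh difference between times was not called (limma interaction adjusted p = 0.16). The ratio of Etfa to Etfb FPKM was 1.09 to 1.22 in KO libraries, against 0.758 to 0.964 in WT libraries, with no overlap. A ratio within a library shows unequal change and not that one gene stayed fixed.

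**Figure D3:**
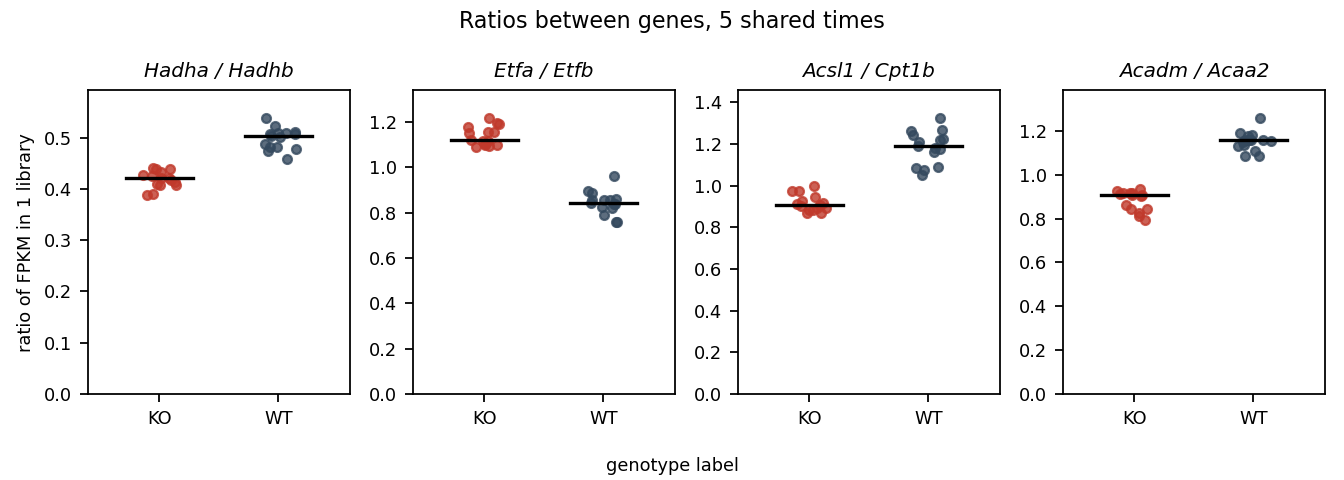
Ratio of the FPKM of 2 genes in each library of the 5 shared times (points, 15 libraries per genotype; lines, medians; KO left, WT right; axes start at 0). None of the 4 ratios overlaps: Hadha to Hadhb, Acsl1 to Cpt1b and Acadm to Acaa2 are lower in KO and Etfa to Etfb is higher.

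The plot of ratios adds pairs from different steps. Acsl1 to Cpt1b, the synthetase against the carnitine transferase of the outer membrane, was 0.867 to 1.00 in KO libraries, against 1.05 to 1.33 in WT libraries. Acadm to Acaa2, a first-step against a last-step enzyme, was 0.795 to 0.934 in KO libraries, against 1.09 to 1.26 in WT libraries. Ratios did overlap for Acadl to Acadvl, at 1.41 to 1.66 in KO and 1.39 to 1.68 in WT libraries, and for Cpt1b to Cpt2, Eci2 to Eci1, Acacb to Mlycd, Lpl to Gpihbp1 and Fabp3 to Fabp4.

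Of the 3 peroxisomal enzymes, which shorten very long and branched chains outside mitochondria, 2 fell. Ehhadh, the L-bifunctional enzyme (mm10 chromosome 16, 21761285 to 21787834), had 3.04, 3.59 and 3.68 FPKM at ZT2, 4.76 to 5.01 at ZT6, 5.17 to 5.96 at ZT10, 3.58 to 4.64 at ZT14 and 2.88 to 3.02 at ZT18 in KO hearts. In WT hearts it had 4.23, 4.38 and 5.56 FPKM at ZT2, 8.60 to 12.35 at ZT6, 8.73 to 9.70 at ZT10, 5.36 to 10.16 at ZT14, 4.13 to 4.78 at ZT18 and 6.27 to 6.78 at ZT22. Groups never overlapped within a time, although the WT values at ZT2 and ZT18 lie below the highest KO value, at ZT10. Ehhadh fell by 0.64 ± 0.06 in the mean (limma adjusted p = 2.2e-10), from -0.36 at ZT2 to -0.98 at ZT6. Hsd17b4, the D-bifunctional enzyme, had 51.6, 55.0 and 62.1 FPKM in KO hearts, against 55.0, 60.0 and 63.6 FPKM in WT hearts, and fell by 0.12 ± 0.02 (limma adjusted p = 4.7e-06). Acaa1a, a peroxisomal thiolase, had 27.9, 31.9 and 35.2 FPKM in KO hearts, against 29.2, 33.5 and 36.5 FPKM in WT hearts, and its difference of -0.05 ± 0.03 was not called (limma adjusted p = 0.092). With median-ratio scaling, quantile normalization and edgeR the Acaa1a difference was -0.08 and was called, and its span overlaps Myd88 and Slc22a14 on the other strand.

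Both genes that set malonyl-CoA fell. Acacb, the mitochondrial acetyl-CoA carboxylase that makes malonyl-CoA (mm10 chromosome 5, 114146321 to 114250761), had 32.6, 37.4 and 40.9 FPKM in KO hearts, against 48.8, 57.6 and 62.4 FPKM in WT hearts, with no overlap. It fell by 0.59 ± 0.02 and had the smallest p of the 35 genes (limma adjusted p = 7.7e-18). Mlycd, the decarboxylase that removes malonyl-CoA, had 52.6, 58.3 and 79.2 FPKM in KO hearts, against 57.8, 72.2 and 81.4 FPKM in WT hearts, overlapped, and fell by 0.20 ± 0.03 (limma adjusted p = 4.5e-07).

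**Figure D4:**
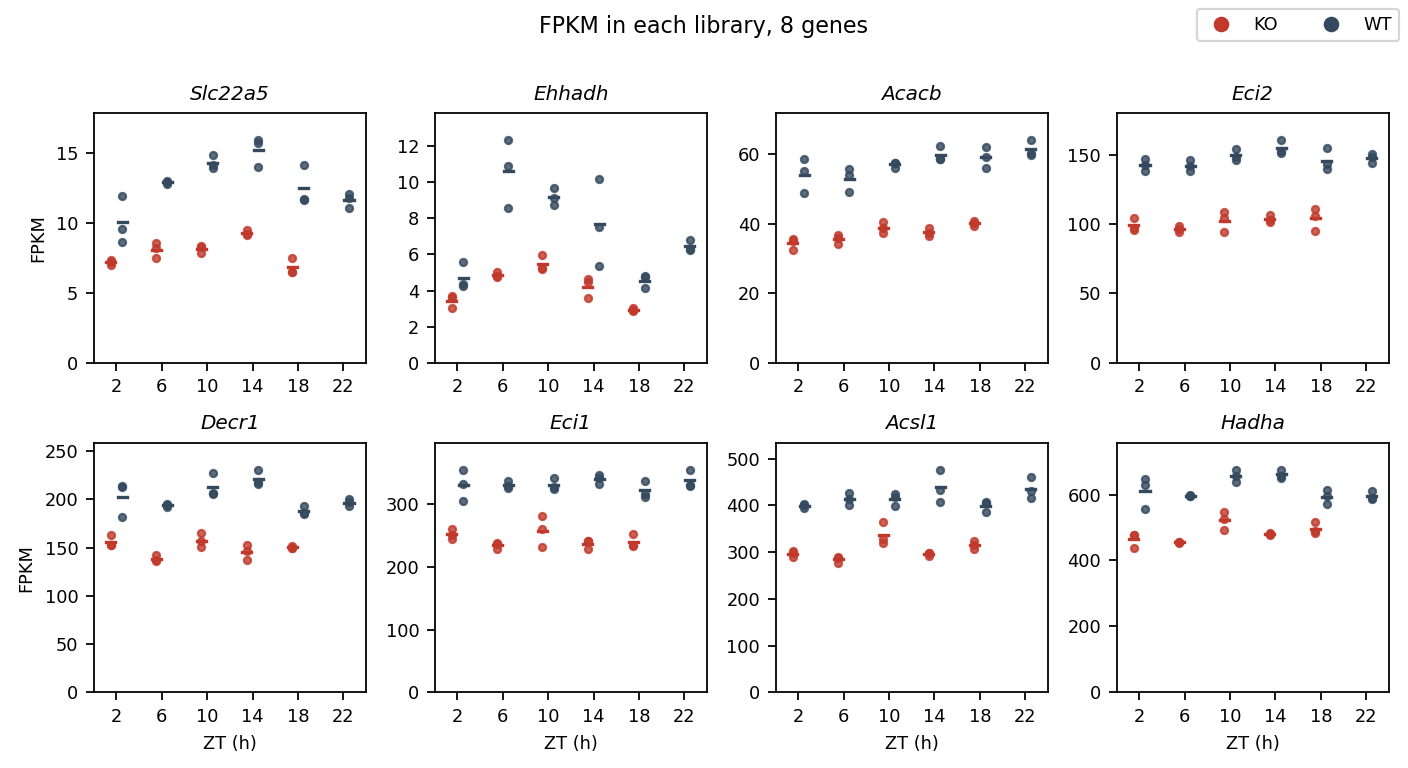
FPKM in each library against ZT in hours for the 8 genes with the largest mean KO minus WT difference (points, single libraries, offset by genotype; short bars, means of 3; KO red, WT dark; axes start at 0). At every shared time the 3 KO libraries lie below the 3 WT libraries in all 8 genes, and Slc22a5 and Ehhadh also move over the day in both groups.

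The plot of the 8 largest differences shows the gap at every shared time in each gene. Taken time by time, 19 of the 35 genes fell at ZT2 (11.3% of all genes tested fell), 23 at ZT6 (12.7%), 20 at ZT10 (13.5%), 26 at ZT14 (11.8%) and 20 at ZT18 (14.4%). The number that rose was 1 at ZT2 (18.6% of all genes rose), 0 at ZT6 (19.1%), 1 at ZT10 (14.3%), 0 at ZT14 (19.2%) and 3 at ZT18 (17.7%). The genes that rose were Acsl5 at ZT2, Etfa at ZT10, and Acaa2, Etfa and Crat at ZT18. The median difference of the 35 genes was -0.18, -0.27, -0.17, -0.30 and -0.16 at ZT2, 6, 10, 14 and 18, against 0.03, 0.03, -0.01, 0.04 and 0.01 for all genes tested. In 17 of the 35 genes the fall was called at all 5 times, against 5.09% of all genes tested. Gpihbp1, Acsl3 and Acsl4 were called at none of them, against 41.3% of all genes tested.

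**Figure D5:**
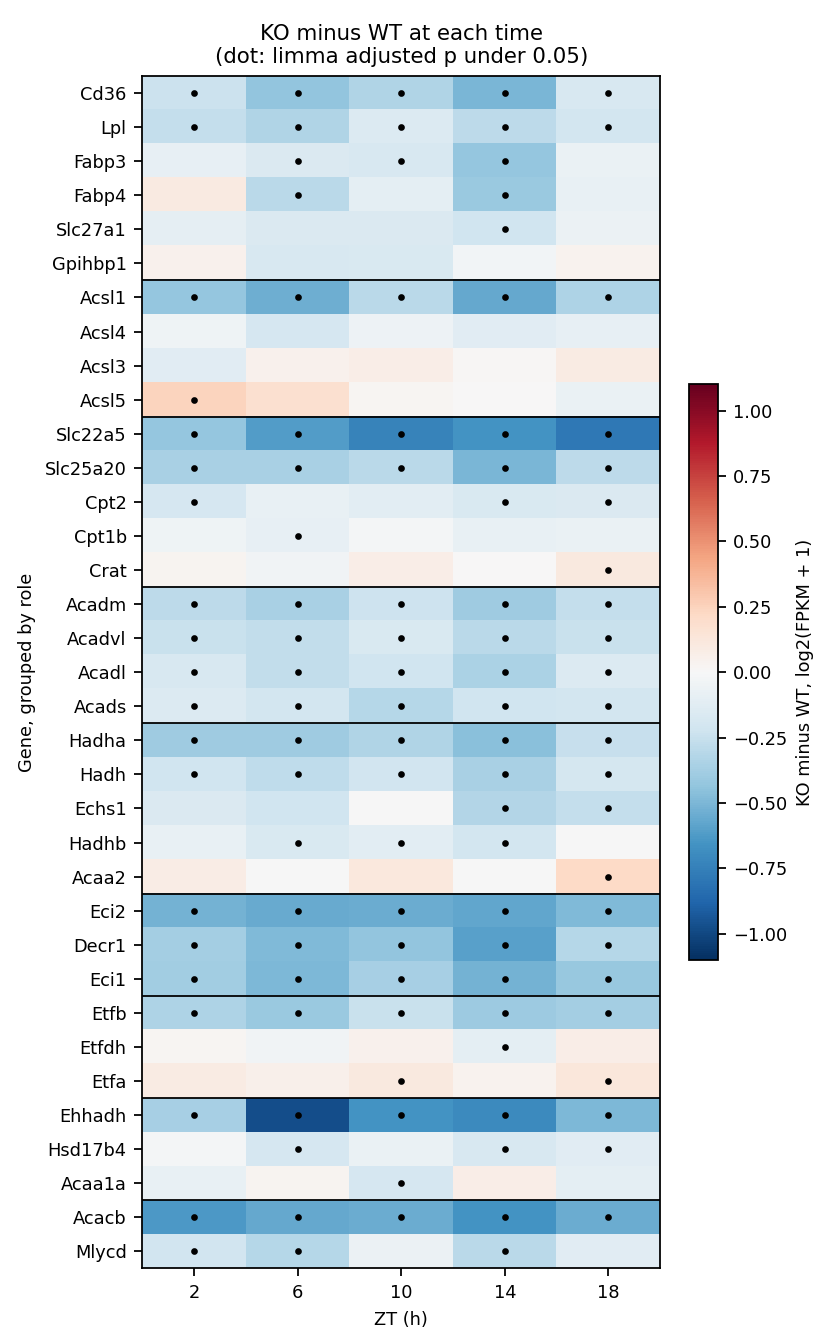
KO minus WT difference of log2(FPKM + 1) at each shared ZT for the 35 genes, grouped by role (blue, lower in KO; red, higher in KO; dot, limma adjusted p under 0.05). The 3 genes for unsaturated fatty acids and the 4 dehydrogenases are called at every time, and the deepest blue of most rows is at ZT14.

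The map of differences by time shows that the most negative value of a gene was at ZT14 for 19 of the 35 (11% of all genes tested), at ZT6 for 9 (12.4%), and for 2 each at ZT2 (11%), ZT10 (19.4%) and ZT18 (19.3%). The remaining gene, Etfa, had no negative value at any time, as had 27% of all genes tested. These counts are a description, and the test of whether a gene's difference varied between times called 5 of the 35, namely Fabp4, Cd36, Fabp3, Acadl and Acsl1, against 5.37% of all genes tested. That count was 1 under quantile normalization, 3 with no filter on low values and 8 with edgeR, and leaving out 1 library gave 2 to 7. It fell to 2 without KO ZT14 replicate 3, and to 3 without KO ZT14 replicate 2, KO ZT18 replicate 1 or WT ZT18 replicate 3. Red blood cell markers also varied between times, with all 5 higher at ZT2, all 5 lower at ZT6, 3 of 5 lower at ZT18, and 0 called by limma at ZT10 and ZT14, where 0 had an unadjusted p under 0.05. Their sums were 4648 to 5951 FPKM in KO against 2982 to 4163 FPKM in WT hearts at ZT2, and 2942 to 3312 FPKM in KO against 4908 to 5588 FPKM in WT hearts at ZT6. At ZT18 the sums overlapped, at 3166 to 4663 FPKM in KO against 4393 to 6282 FPKM in WT hearts, and the median difference of the 5 was -0.50. Their part in the differences by time was not tested.

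A 24 h cosine wave was called in 9 of the 35 genes in KO hearts (26.9% of all genes tested) and in 18 in WT hearts (38.6%). The groups are not matched for this count, since usable values cover 5 times in KO hearts and 6 in WT hearts. The wave was called in both groups for 8 genes (17.5% of all genes tested), in WT alone for 10 (21.2%), in KO alone for Acsl5 (9.43%), and in neither for 16 (51.9%). The wave itself differed between KO and WT in 0 of the 35 genes by limma (1.09% of all genes tested), where 2 genes, Cd36 and Acsl5, had an unadjusted p under 0.05. The smallest adjusted p of that test was 0.226, for Cd36.

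Ehhadh had the largest wave, with an amplitude of 0.42 ± 0.09 log2 units (SE) and a peak at ZT9.1 in KO hearts, against 0.44 ± 0.08 and ZT8.8 in WT hearts. Fabp4 followed, with 0.27 ± 0.04 and ZT9.3 in KO hearts, against 0.33 ± 0.04 and ZT10.4 in WT hearts. Slc27a1 had 0.25 ± 0.05 and ZT12.4 in KO hearts, against 0.24 ± 0.04 and ZT12.7 in WT hearts. Slc22a5 had 0.18 ± 0.05 and ZT10.7 in KO hearts, against 0.24 ± 0.04 and ZT12.5 in WT hearts. Mlycd had 0.22 ± 0.04 and ZT9.9 in KO hearts, against 0.16 ± 0.03 and ZT9.2 in WT hearts. In each of these 5 genes the wave was called in both groups.

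Gpihbp1 had an amplitude of 0.15 ± 0.06 in KO hearts, not called (limma adjusted p = 0.16), against 0.24 ± 0.05 with a peak at ZT8.9 in WT hearts (limma adjusted p = 0.0011). Cd36 had 0.06 ± 0.03 in KO hearts, not called (limma adjusted p = 0.15), against 0.14 ± 0.02 with a peak at ZT8.4 in WT hearts (limma adjusted p = 0.00015). Hadhb had 0.03 ± 0.02 in KO hearts, not called (limma adjusted p = 0.63), against 0.10 ± 0.02 with a peak at ZT9.4 in WT hearts (limma adjusted p = 0.00032). Acsl5 had 0.19 ± 0.04 with a peak at ZT4.2 in KO hearts (limma adjusted p = 0.0014), against 0.04 ± 0.04 in WT hearts, not called (limma adjusted p = 0.58). For none of these 4 genes was the difference of waves called, with limma adjusted p of 0.81, 0.23, 0.40 and 0.33. When no wave shape was assumed, any change over the 5 KO times was called in 22 of the 35 genes, against 45.7% of all genes tested.

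Other genes of fatty acid uptake and oxidation, a list of 32 of which 31 were tested, moved mostly the same way. Of these, 17 were lower, 5 higher and 9 not called, with a median of -0.11. Among all genes tested 23.4% were lower and 33.2% higher. Ech1, the dienoyl-CoA isomerase that acts beside Eci1, Eci2 and Decr1, averaged 861 FPKM in KO hearts (788 to 937), against 1491 FPKM in WT hearts (1303 to 1671), with no overlap. It fell by 0.79 ± 0.03 (limma adjusted p = 5.7e-19), further than any of the 35 genes on this scale. Dbi, the acyl-CoA binding protein, averaged 340 FPKM in KO hearts (312 to 380), against 205 FPKM in WT hearts (185 to 233), and rose by 0.73 ± 0.02 (limma adjusted p = 8.2e-21). Acss1, the mitochondrial acetyl-CoA synthetase, averaged 82.5 FPKM in KO hearts, against 124 FPKM in WT hearts, and fell by 0.58 ± 0.02 (limma adjusted p = 7.7e-18).

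Among 18 other peroxisomal genes, 16 tested, 8 fell, 5 rose and 3 were not called, with a median of -0.06. Across all genes tested, 23.4% fell and 33.2% rose. Pex11a, which takes part in peroxisome division, averaged 11.5 FPKM in KO and 16.3 FPKM in WT hearts, and fell by 0.46 ± 0.03 (limma adjusted p = 3.2e-13). Scp2, which carries the thiolase for branched chains, averaged 192 FPKM in KO and 150 FPKM in WT hearts, and rose by 0.36 ± 0.03 (limma adjusted p = 1.2e-11).

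Genes of mitochondrial structure gave no such majority, with 6 higher, 5 lower and 6 not called of 17 and a median of 0.02. These counts are near the shares of all genes tested, 33.2% higher and 23.4% lower. Cycs, which encodes cytochrome c, rose by 0.38 ± 0.09 (limma adjusted p = 0.0006), Tomm22, of the outer membrane import pore, rose by 0.17 ± 0.02 (limma adjusted p = 6.6e-07), and Hspd1, a matrix chaperone, fell by 0.12 ± 0.03 (limma adjusted p = 0.0007). Cardiomyocyte markers were split, with 4 higher, 4 lower and 1 not called of 9. Tnni3, cardiac troponin I, fell by 0.43 ± 0.01 (limma adjusted p = 2.0e-20), Myh6, the alpha myosin heavy chain, fell by 0.42 ± 0.03 (limma adjusted p = 4.5e-12), and Mybpc3, a myosin binding protein, rose by 0.37 ± 0.02 (limma adjusted p = 3.9e-15). Their part in the differences of the 35 genes was not tested.

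RefSeq promoters (GRCm38.p6, 250 bases before to 50 after the start) were matched for 27 of the 35 genes, all but Acaa2, Cpt1b, Crat, Decr1, Fabp4, Gpihbp1, Hsd17b4 and Lpl. On either strand, TAGGTCA, the core of the element that Rev-erb and ROR proteins bind, was in 1 of the 27, against 2.64% of all 27025 promoters and 1.75% of the 9412 that belong to genes tested here. The nuclear receptor half-site AGGTCA, which that core contains, was in 5 of the 27 (Acacb, Acadm, Acadvl, Cd36 and Echs1), against 16.0% of all promoters and 12.0% of those of tested genes. A pair of half-sites spaced by 1 base (DR1) was in 0 of the 27, against 0.0444% of all promoters and 0.0319% of those of tested genes. The clock E-box CACGTG was in 0 of the 27, against 7.24% and 10.4%. A match is a description of the letters and not a bound site, and sites outside these windows were not searched.

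The match in Acacb lies after the RefSeq start. The 4 matches upstream of the RefSeq start are printed with the bases around them, free of annotated exons. All 4 genes fell in KO hearts, but 27 of the 35 genes fell, so a fall does not set these 4 apart. For Cd36 the RefSeq start is an internal one, 53063 bases inside the span given above, so its match lies within the gene. For Acadvl, Acadm and Echs1 it is the outermost start of the span. The half-site, or in Acadvl the 7-base core, is in capitals, and each sequence runs along the strand of its gene, all of them minus strand: Acadvl chr11:70015483-70015542, Cd36 chr5:17836092-17836146, Acadm chr3:153944860-153944893 and Echs1 chr7:140116487-140116516.
Acadvl: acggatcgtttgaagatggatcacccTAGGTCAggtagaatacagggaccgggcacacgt
Cd36: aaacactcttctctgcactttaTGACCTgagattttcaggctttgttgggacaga
Acadm: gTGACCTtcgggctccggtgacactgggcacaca
Echs1: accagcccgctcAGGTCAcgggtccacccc

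Counted from the RefSeq start, the first base of the match is at -88 in Acadvl, -83 in Echs1, -228 in Cd36 and -249 in Acadm. Acadvl and Echs1 start beside genes on the other strand, Dvl2 and Paox, whose spans overlap theirs. Of the 35 genes, 19 share part of their annotated span with another gene, among them Fabp3, Crat, Hadha, Eci2 and Etfb, and reads of shared stretches may be counted for either gene.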

How the data were processed

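Per the labels' protocols, RNA was taken from frozen hearts with Trizol and libraries were made with an Illumina TruSeq kit, and the submitters' processing notes name mm10 as the build. Which aligner, counter and strand setting were used is not given in the sources used here. In 33 tables the deposited value per gene is, from its scale, FPKM computed by the authors, who had given each table NCBI Gene IDs. The 3 tables recorded for KO at ZT22 hold deposited expected counts whose header names are those of KO at ZT10. They were used only to rebuild gene lengths and depth, and as the edgeR counts of KO at ZT10. One group of 3 WT libraries at ZT14 carries header numbers other than its record, and the record was followed; 1 repeated column was left out.

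Differences were tested on log2(FPKM + 1) with limma 3.58.1 (R 4.3.3, trended eBayes, Benjamini-Hochberg over the 11790 genes that reached 1 FPKM in 3 or more libraries, threshold 0.05). The mean effect, the 5 single times and the interaction came from 11 group means with 22 residual degrees of freedom, and waves from a 24 h cosine with 27. The methods were run on simulated data whose effects were larger than those of most of the 35 genes. That run does not cover effects as small as most reported here. The 35 genes and the other lists were chosen with earlier results of these data known. Genes given in full were the 8 largest mean differences, the 4 smallest interaction p, the 4 largest WT amplitudes, the 3 smallest p for a difference of waves and any called against the majority, and, from other lists, the 3 largest called. The result of 1 gene that this rule names among the other lists is not reported here. edgeR 4.0.16 was run on counts rebuilt as FPKM times length times depth, rounded to whole numbers, for 11730 genes. For the 3 KO libraries at ZT10 the deposited expected counts, rounded, took the place of rebuilt ones. Rebuilt depth lay within -0.149% to 0.105% of the totals of the 3 count tables. Gene lengths came from these same tables and totals, so this closeness was built in. It does not check the depth of the other libraries, which have no deposited total. Replicates of a group differed by more than sampling noise in all 33 pairs. KO and WT libraries of the same replicate number were not treated as pairs in the main fit.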

Additional observations from a re-analysis of the deposited data

Results flagged for a closer look

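In 5 of the 35 genes the KO minus WT difference itself varied between the 5 times of day, by limma's interaction test. Of all genes tested, 5.37% were called. The count among the 35 was not stable, since it was lower under quantile normalization and lay between 2 and 7 when single libraries were left out. The adjusted p was 0.00245 for Fabp4, which ran from 0.09 at ZT2 to -0.40 at ZT14. It was 0.0156 for Cd36, with -0.50 at ZT14 and -0.17 at ZT18. It was 0.0203 for Fabp3, with -0.42 at ZT14 and -0.07 at ZT18, 0.0316 for Acadl, with -0.35 at ZT14 and -0.15 at ZT18, and 0.0376 for Acsl1, from -0.30 at ZT10 to -0.56 at ZT14. In all 5 genes the most negative value was at ZT14, where each group has 3 libraries.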

How the results depend on the processing

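The fall of 27 genes in the mean over times was 26 to 28 under every alternative tried, and all 29 calls of that mean held when any 1 of the 33 libraries was left out, while Acsl5, Crat and Acaa1a gained a call in some of these. The genes that rose in the mean numbered 1 with median-ratio scaling, quantile normalization or edgeR, when Acaa2 lost its call. Over all genes, 3916 rose and 2763 fell, against 3362 and 3325 under median-ratio scaling, 3300 and 3398 after quantile normalization, and 3303 and 3378 by edgeR, where the median of all genes shifted from 0.02 to 0.00. Genes that rose at ZT10 numbered 0 with quantile normalization. The interaction called 1 gene with quantile normalization, 3 with no filter and 8 with edgeR. Without a wave shape 22 of the 35 genes changed over the day in KO hearts, and 5384 genes in KO and 6866 in WT hearts. With WT at the 5 shared times, 79 genes differed in their wave. Quantile normalization turned the sign of Fabp3 at ZT6 to 0.14, of Crat in the mean to -0.060 and of Crat at ZT18 to -0.0087. There Crat was called lower in the mean (limma adjusted p = 0.0055) and lost its call at ZT18 (limma adjusted p = 0.90). The cause of these shifts was not tested. Leaving out 1 library gave 0 to 2 genes that rose at ZT2, 0 to 1 at ZT6, 0 to 1 at ZT10, 2 to 7 genes with an interaction (411 to 964 over all genes, the highest without WT ZT2 replicate 1, the lowest without KO ZT18 replicate 3) and 80 to 214 genes over all that differed in their wave. With the replicate number as a block, 27 genes fell and 2 rose in the mean, 3886 and 2747 over all genes. Correlations of same-numbered KO and WT libraries ran from -0.10 to 0.06, which cannot show whether the numbers pair samples. Of the single-gene values recomputed under an alternative, 62 gained and 81 lost a call. Acsl3, Acsl4 and Ehhadh have the lowest FPKM of the 35 genes in KO hearts, where depth limits precision most.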

Other observations

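Regulators of fatty acid genes, a list of 17 of which 16 were tested, were lower more often than higher in KO hearts. Of these, 9 were lower, 2 higher and 5 not called, with a median log2 difference of -0.14. The shares of all genes tested were 23.4% lower and 33.2% higher. Perm1, a muscle regulator of oxidative metabolism, averaged 85.2 FPKM in KO hearts (74.2 to 104), against 122 FPKM in WT hearts (102 to 146), and fell by 0.52 ± 0.02 (SE; limma adjusted p = 2.4e-17). Ppargc1a, the coactivator PGC-1 alpha, averaged 17.0 FPKM in KO hearts (14.6 to 20.1), against 24.9 FPKM in WT hearts (18 to 39.7), and fell by 0.50 ± 0.05 (limma adjusted p = 5.2e-10). Ppara, a nuclear receptor that activates many genes of fatty acid oxidation, averaged 12.6 FPKM in KO hearts (8.67 to 16.6), against 16.4 FPKM in WT hearts (11.6 to 25.2), and fell by 0.36 ± 0.03 (limma adjusted p = 3.6e-10). In all 3 genes the KO libraries were lower without overlap at each of the 5 shared times, and the ranges of the 2 genotypes met only when different hours were pooled. The Ppargc1a difference ran from -0.28 at ZT10 to -0.97 at ZT6, and that of Ppara from -0.22 at ZT18 to -0.69 at ZT6. Both varied between times (limma interaction adjusted p = 0.0217 and 0.0313).

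Among markers of other cell types, fibroblast markers had 4 of 7 higher in KO hearts (33.2% of all genes tested rose) and 0 lower (23.4% fell). The fibroblast sums were higher in KO hearts without overlap at ZT2, ZT6, ZT14 and ZT18. At ZT2 they were 505.8 to 567.7 FPKM in KO against 458.4 to 490.5 FPKM in WT hearts. At ZT18 they were 486.1 to 496.7 FPKM in KO against 420.0 to 424.3 FPKM in WT hearts. At ZT10 they overlapped, at 402.7 to 501.9 FPKM in KO and 471.3 to 493.4 FPKM in WT hearts. Col1a1 and Col1a2, which encode type I collagen, rose by 0.39 ± 0.05 (limma adjusted p = 1.4e-07) and 0.29 ± 0.04 (limma adjusted p = 1.7e-07), and Lum, a collagen-binding proteoglycan, rose by 0.24 ± 0.05 (limma adjusted p = 0.00015). Of 6 smooth muscle and pericyte markers 1 rose, which was Acta2, at a mean of 245 FPKM in KO and 95.9 FPKM in WT hearts. Of 7 macrophage markers 1 rose, which was Cd68, by 0.21 ± 0.06 (limma adjusted p = 0.0025), and of 5 red blood cell markers 0 were called in the mean over times by limma. Their part in the differences of the 35 genes was not tested.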
